A study of Drosophila melanogaster with 3 samples.

Results

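The regions described here are the 10 kb bins of the left arm of Drosophila chromosome 3 (3L) that hold 20 or more array probes and lie between positions 500001 and 22543557. Position alone chose them, so the distal 500 kb tip and the 2 Mb next to the centromere were left out and no measured ratio was used. There were 2200 such bins out of 2204 in that window and out of 13555 in the whole series (16.2%). The median bin held 179 probes, and 70 bins held under 100.

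Circular chromosome conformation capture (4C) was used to map what lies near 3 insulator binding sites in the nuclei of S2-DRSC cells, a cultured line from Drosophila embryos. BaitA (3R, 91997 to 92920) and BaitC (3R, 384440 to 385252) lie on 3R, the partner arm of 3L on the same chromosome, and BaitB (2L, 8485115 to 8485894) lies on chromosome 2. Each bait had 1 array with 2 colours, on which inverse PCR products of ligated DNA (Cy5) were set against genomic DNA that was cut with DpnII and never ligated (Cy3). All 3 libraries came from control S2-DRSC cells, which an array of DNA cannot check by marker genes, and the labels give no second culture, so a spread below is over bins or probes within an array, no test between arrays was made and the number of arrays limits the precision.

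In 4C, chromatin is cross-linked, cut and ligated, so that DNA held near the bait becomes joined to it and can be amplified outward from the bait. Insulators are elements whose bound proteins, such as CTCF, Su(Hw) and BEAF-32, take part in chromosome folding. The arms of a fly chromosome are joined at the centromere, the heterochromatin around the centromeres tends to gather in the nucleus, and an arm mostly keeps to a territory of its own. The bins of 3L therefore address what an insulator site on 3R, or on another chromosome, meets on an arm that carries no bait. Positions are those of the deposited files, whose arm lengths are those of Drosophila Release 5 (24543557 bp for 3L). Values are log2 ratios of the 4C channel to the unligated channel, with the median of all probes of an array set to 0. A bin is called raised at 1 or more and lowered at -1 or less on this scale. These cutoffs were the same in every array although the BaitC ratios spread less, so the shares called are not comparable between arrays.

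The arm as a whole lay close to the median of each array. The mean over 3L bins was 0.013 ± 0.91 (SD over 2200 bins) with BaitA, -0.10 ± 0.91 with BaitB and -0.092 ± 0.53 with BaitC. Over the 23 blocks of 1 Mb the means had an SD of 0.20, 0.23 and 0.13 in the same order, so each arm mean was within 1 such SD of 0. Single blocks ran from -0.25 to 0.38 with BaitA, from -0.74 to 0.32 with BaitB and from -0.41 to 0.11 with BaitC. The choice of 0 bears on these means: centred on the probes of the 5 major arms without the bait's own, every value was higher by 0.22 with BaitA, 0.49 with BaitB and 0.05 with BaitC.

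The mean of 3L was below that of the arms of chromosome 2 in the BaitA array, although BaitA lies on chromosome 3. There 3L minus 2R and 3L minus 2L were both -0.25, against block SDs of 0.20 for 3L, 0.24 for 2R and 0.19 for 2L. In the BaitB array, whose bait is on chromosome 2, 3L minus 2R was -0.29. In the BaitC array, whose bait is on chromosome 3, 3L minus 2R and 3L minus 2L were both 0.012, which is under the block SD of any of these arms. The partner arm 3R, which carries BaitA and BaitC, was itself lower than 3L in the BaitA array (3L minus 3R was 0.20) and level with it in the BaitC array (-0.015). The BaitB array, with no bait on 3R, gave 0.17 for the same difference. Set between arrays, 3L minus 2R was higher than with BaitB by 0.044 with BaitA, which is under the block SDs, and by more than them with BaitC. That difference was not tested, and the baits of chromosome 3 did not share it. BaitC ratios also spread less, with an SD over 3L bins of 0.53 against 0.91 with BaitA and BaitB. Differences between arrays were not scaled for this.

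Against the X chromosome the order of the arrays differed. 3L lay above X by 0.53 in the BaitA array and by 0.42 in the BaitB array, and 3L minus X was -0.32 in the BaitC array. Each of these is larger than the block SD of 3L and of X, which were 0.15, 0.16 and 0.15 for X. Per the file headers, the slide of the BaitB array was used again for that of BaitA, while BaitC was on another reused slide, so slide and array order go with this contrast, and their part in it was not tested. Weighting the bins of the other arms to the gene content of 3L, an alternative chosen after seeing the data, left 3L minus 2R at -0.22, -0.25 and 0.044 and 3L minus X at 0.53, 0.425 and -0.32 with BaitA, BaitB and BaitC.

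**Figure D1:**
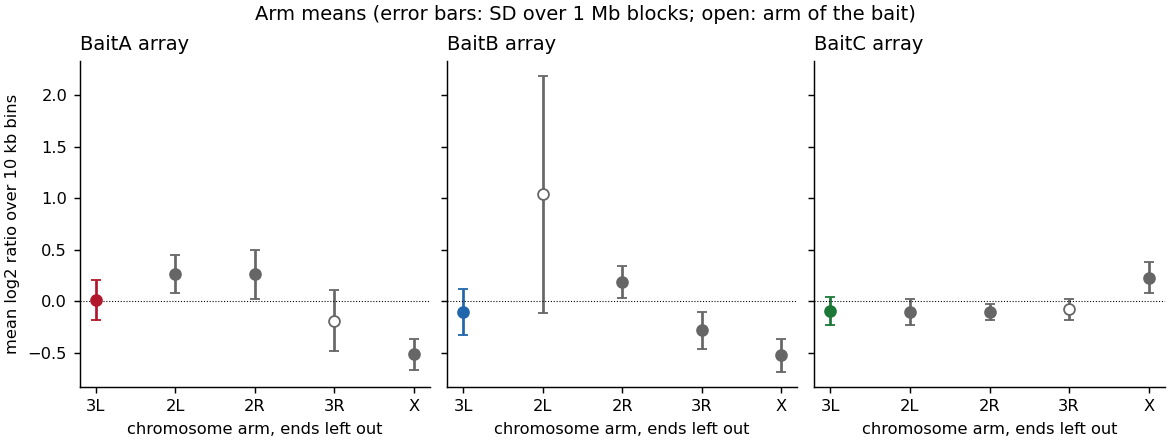
Mean centred log2 ratio over 10 kb bins (vertical axis) of each major chromosome arm with its ends left out (horizontal axis), 1 panel per array, with error bars of 1 SD over 1 Mb blocks and open symbols for the arm of the bait. 3L, in colour, lies at 0.013, -0.10 and -0.092, below 2R with BaitA and BaitB and level with it in the BaitC array, while X is below 3L with BaitA and BaitB and above it with BaitC.

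Raised bins were a smaller share of 3L than of the whole series, as they were of most other arms, and lowered bins were about as frequent or more so. In the BaitA array 301 bins (13.7%) were raised, against 26.5% of all 13555 bins, and 295 (13.4%) were lowered, against 13.2%. In the BaitB array 236 bins (10.7%) were raised, against 24.7%, and 358 (16.3%) were lowered, against 14.2%. In the BaitC array 29 bins (1.32%) were raised, against 6.36%, and 126 (5.73%) were lowered, against 3.28%. The bins of the whole series include the bait arms, the arm ends and the heterochromatic scaffolds. Over the matching windows of 2L, 2R, 3R and X, raised bins came to 22.5, 21.7, 9.83 and 2.83% with BaitA, 45.9, 19.4, 7.10 and 2.68% with BaitB, and 0.929, 0.702, 1.70 and 4.75% with BaitC. Of these, the share exceeded that of the series only on 2L, the bait arm, in the BaitB array, and 3L stood between the other arms in each array. Raised bins made up 50.5%, 39.7% and 18.7% of the called bins of 3L with BaitA, BaitB and BaitC. Centred on the arms without the bait, they made up 67.7%, 77.8% and 28.5%, so the balance of raised and lowered bins depends on where 0 is set.

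Among the highest 5% of all bins of an array, which is 5 of every 100 by construction, 3L held 9 bins (0.409%) with BaitA, 17 (0.773%) with BaitB and 20 (0.909%) with BaitC, against a background of 5%. The other arms were mostly low too: 2L, 2R, 3R and X held 1.56, 1.35, 0.158 and 0.0505% with BaitA, 20.1, 1.46, 0.158 and 0.152% with BaitB, and 0.635, 0.378, 0.947 and 2.58% with BaitC. Of the 3L bins, 1 was shared by BaitA and BaitC (background 1.61%), the thinly covered bin at CG32198 described below. None was shared by BaitA and BaitB (background 0.863%), by BaitB and BaitC (0.516%) or by all 3 arrays (0.325%).

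Along the arm the ratio was patchy, and the ends of the window differed little. In 100 kb means the values went from -0.998 to 1.16 with BaitA, from -1.15 to 0.89 with BaitB and from -0.90 to 0.49 with BaitC, and 120, 86 and 85 of the 221 stretches lay above 0. The 5 Mb nearest the centromere minus the first 5 Mb gave 0.22 with BaitA and 0.14 with BaitC, just above the block SDs of 0.20 and 0.13, and 0.013 with BaitB. The SD over bins within each of these ends was between 0.90 and 0.93 with BaitA and BaitB and between 0.51 and 0.55 with BaitC. The 1 Mb of the window nearest the centromere averaged 0.011, -0.52 and -0.24, whereas the 2 Mb beyond it, which were left out, averaged 1.46, 0.76 and 0.32 with the baits in that order. The mean of the 2 Mb left out was thus above that of the last 1 Mb with all 3 baits, BaitB of chromosome 2 included. Where within that stretch the ratio rose was not examined. At the other end, the tip of 500 kb averaged -0.11, 0.12 and 0.12.

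**Figure D2:**
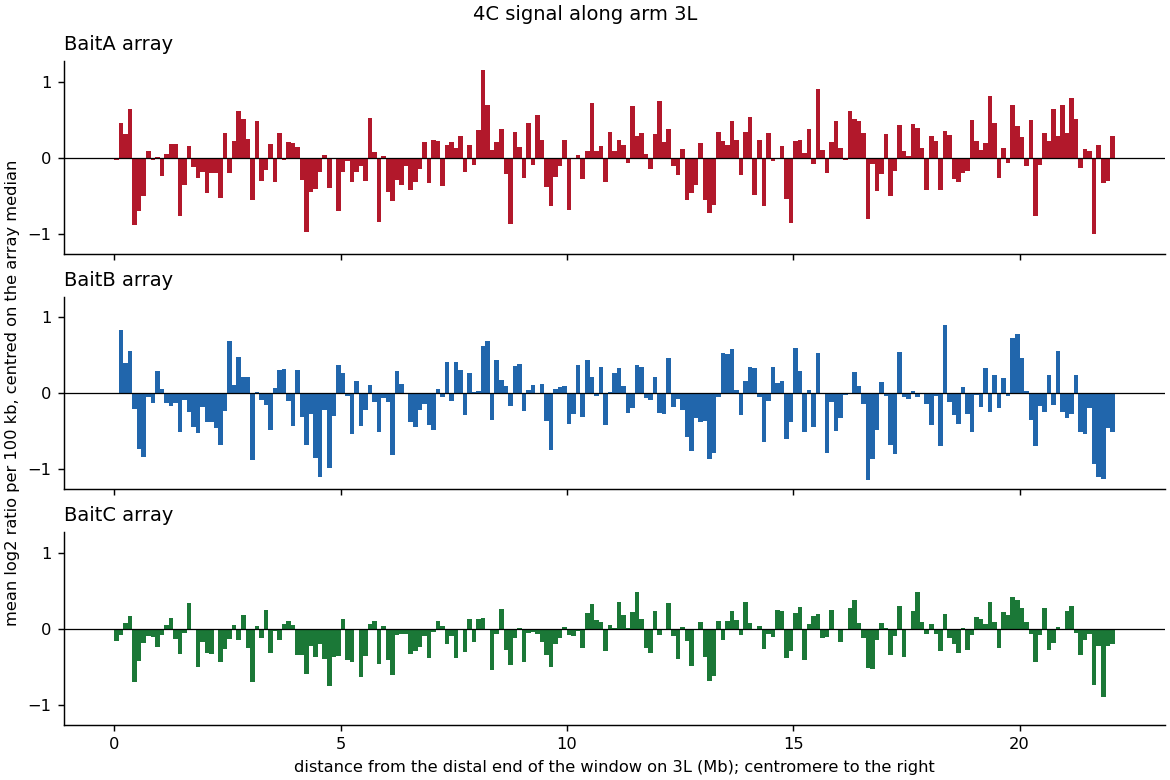
Mean centred log2 ratio of 100 kb stretches (vertical axis) against the distance from the distal end of the window on 3L in Mb (horizontal axis, centromere to the right), 1 panel per array. Highs and lows alternate along the whole arm in each array, between -0.998 and 1.16 with BaitA, -1.15 and 0.89 with BaitB, and -0.90 and 0.49 with BaitC, and a low near the centromere end stands in all 3.

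Most of the variation was on a short scale. Single probes had a mean SD within a bin of 2.23 with BaitA, 2.27 with BaitB and 1.39 with BaitC, which exceeds the SD between bins. Pearson's r between probes of 3L at a median distance of 55 bp was 0.89, 0.88 and 0.74, at 550 bp it was 0.37, 0.36 and 0.27, and at 2210 bp it was 0.060, 0.056 and 0.069. Neighbouring probes were thus alike over a distance far shorter than a bin. Adjacent bins correlated at 0.18, 0.21 and 0.30. Of the runs of adjacent raised bins, 185 of 236 with BaitA, 159 of 194 with BaitB and 25 of 27 with BaitC were a single bin. Where raised bins are few, most of their runs are single bins in any case, so this count does not measure the scale.

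Gene content went with the ratio in every array. The 1115 bins (50.7%) that hold no transcription start site of the deposited feature tables averaged -0.20 ± 0.93 (SD over bins) with BaitA, -0.30 ± 0.96 with BaitB and -0.27 ± 0.53 with BaitC. The 520 bins with the start site of 1 gene averaged 0.17, 0.044 and 0.010, the 431 bins with 2 to 3 averaged 0.26, 0.15 and 0.14, and the 134 bins with 4 or more averaged 0.39, 0.14 and 0.23. Bins with 4 or more minus bins with none gave 0.59, 0.44 and 0.50, which is larger than the SD over 1 Mb blocks but smaller than the SD over bins, so the classes overlapped widely. The share of lowered bins went from 19.3% in bins without a start site to 2.99% in bins with 4 or more in the BaitA array, from 23.8% to 4.48% with BaitB and from 9.69% to 0% of 134 bins with BaitC.

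The tables bear on this count. They list only genes that the authors paired with a peak of false discovery rate (FDR) at most 0.2 within 5 kb in some array, which covers 82.6% of the protein-coding genes of 3L in the RefSeq table, so a gene away from every peak is missing. With start sites taken only from the tables of the other arrays, an alternative chosen after seeing the data, the same difference was 0.53, 0.35 and 0.46. Bins without a start site also held fewer probes, a mean of 169.97 against 178.7 in the densest class, and over bins of 170 or more probes the difference was 0.57, 0.47 and 0.50. On 2R, 43.3% of bins held no start site, and there bins with 4 or more averaged 0.64, 0.77 and 0.24.

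**Figure D3:**
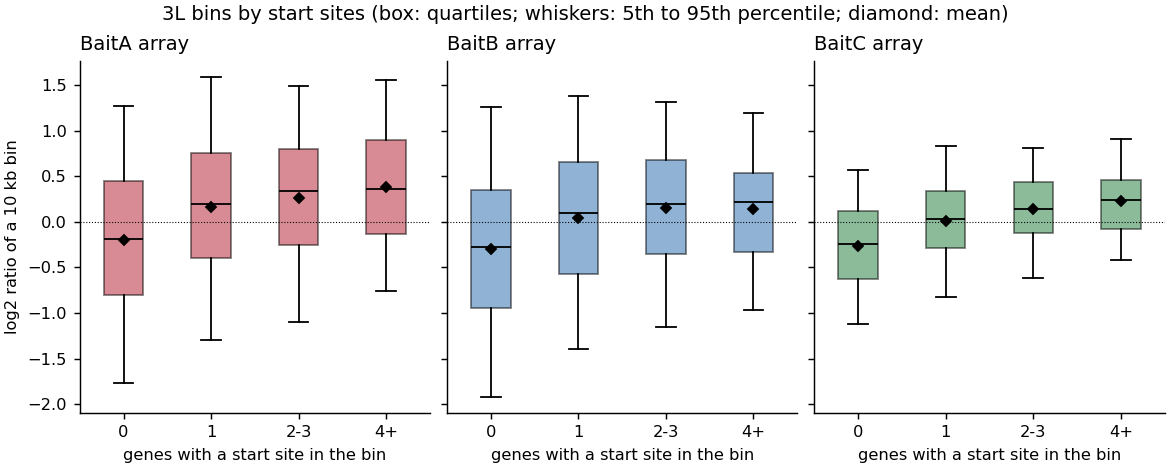
Centred log2 ratio of the 2200 bins of 3L (vertical axis) by the number of genes with a start site in the bin (horizontal axis), 1 panel per array; boxes give quartiles, whiskers the 5th and 95th percentiles and diamonds the mean. The means climb from -0.20 to 0.39 with BaitA and from -0.27 to 0.23 with BaitC, and from -0.30 to 0.14 with BaitB, while the boxes of neighbouring classes overlap.

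The interiors of most of the longest genes were low. The 267 bins fully inside spans of any length and without a start site averaged -0.38 ± 0.99 (SD over bins), -0.44 ± 0.98 and -0.38 ± 0.54 with BaitA, BaitB and BaitC. The 594 bins outside any span averaged -0.18 ± 0.93, -0.31 ± 0.96 and -0.27 ± 0.53, so these classes overlapped widely. Bins without a start site and partly inside spans averaged -0.070, -0.11 and -0.15 at up to 50% cover, and -0.061, -0.13 and -0.11 above it. Of the 5 genes of 3L with a span of at least 100 kb and at least 8 bins, 4 averaged below 0 in all 3 arrays. These were shep, bru3 and Rbp6, which encode RNA-binding proteins, and Ten-m, a teneurin that guides synaptic partner choice. Over the 11 bins inside bru3 (3L, 13531843 to 13657578) the mean was -1.21 ± 1.10 with BaitA, -1.06 ± 0.78 with BaitB and -0.80 ± 0.55 with BaitC, and all 11 bins were below 0 in the BaitC array. Over the 16 bins inside Rbp6 (17059904 to 17228537) it was -0.59, -0.92 and -0.58. Over the 10 bins of shep (5155566 to 5269422) it was -0.75, -1.07 and -0.91. In Ten-m (22288687 to 22400292) it was -0.35, -1.14 and -0.83, lower with BaitB and BaitC than with BaitA. The fifth, Eip75B (17946740 to 18052684), an ecdysone-induced nuclear receptor gene, averaged 0.036, -0.44 and -0.26, and it has start sites in 3 of its 10 bins.

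The lowest 250 kb stretch of the BaitA array, at 13550001 to 13800000, contains much of bru3 and no start site in any of its 25 bins. It averaged -0.88 ± 0.97 (SD over bins) with BaitA, -0.78 ± 0.94 with BaitB and -0.70 ± 0.44 with BaitC. In the BaitC array it was part of a run of 27 adjacent bins below 0, the longest of the arm for that array. The lowest stretches of BaitB (22110001 to 22360000) and BaitC (22140001 to 22390000) nearly coincide. They hold olf413, Rich, Ddx1 and part of Ten-m, and the former averaged -1.11 ± 0.77 with BaitB, -0.68 ± 0.64 with BaitC and -0.46 ± 1.10 with BaitA. The second lowest BaitA stretch, at 920001 to 1170000 with the limb patterning gene bab1 and the guanine exchange factor gene trio, averaged -0.80, -0.65 and -0.51.

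The highest stretch of 3L in each array was rich in genes. The stretch at 20310001 to 20560000, with Hpd, CtIP, CG5910 and mRpL15 nearest its middle, was the highest of the BaitB array and the third highest of the BaitA array, and the highest of the BaitC array was shifted by 1 bin of 10 kb. It held 48 start sites, and 4 of its 25 bins had none. It averaged 0.61 ± 0.77 (SD over bins) with BaitA, 0.74 ± 0.72 with BaitB and 0.39 ± 0.39 with BaitC, so all 3 arrays were high there. CtIP acts in DNA end resection, and mRpL15 is a protein of the mitochondrial ribosome.

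At the highest BaitA stretch the arrays differed. At 8500001 to 8750000 the BaitA mean was 0.93 ± 0.77, the BaitB mean 0.45 ± 0.86 and the BaitC mean 0.12 ± 0.36. It contains Zasp66, a gene of muscle Z-discs, the replication licensing gene Cdc6, GAPsec and the cuticle gene Cpr66D, with 39 start sites in all. Its proximal end was the only run of 8 or more adjacent raised bins on 3L in any of the 3 arrays: 8 bins from 8670001 to 8750000 that averaged 1.68 with BaitA, 1.08 with BaitB and 0.00023 with BaitC. The run holds the chorion gene cluster of 3L, eggshell genes that are amplified in ovarian follicle cells, and SrpRbeta, a subunit of the receptor of the signal recognition particle. The second highest BaitB stretch, at 590001 to 840000 with hng3, averaged 0.70 with BaitB, 0.48 with BaitA and 0.016 with BaitC.

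**Figure D4:**
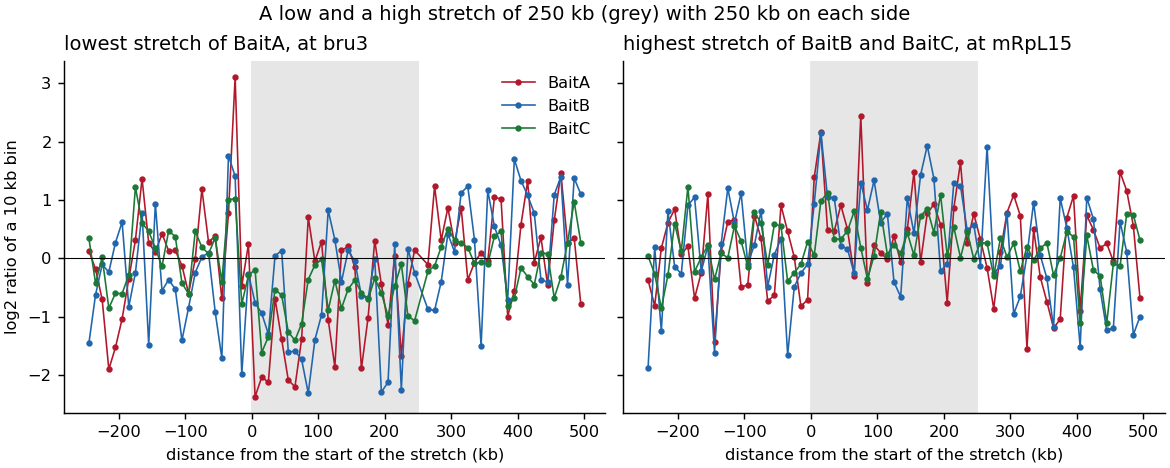
Centred log2 ratio of single 10 kb bins (vertical axis) against the distance in kb from the start of a 250 kb stretch (horizontal axis, grey), with the 3 arrays as lines. In the stretch at bru3 the means are -0.88, -0.78 and -0.70 with BaitA, BaitB and BaitC, with scatter between neighbouring bins, and in the stretch at mRpL15 they are 0.61, 0.74 and 0.39.

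Single bins at the extremes have to be read with their probe number, because 4 of the 6 highest bins of the BaitA array, 3 of 6 of the BaitB array and 1 of 6 of the BaitC array held under 100 probes, against 70 of all 2200. None of the 4 lowest bins of any array did. The highest bin of the arm, at 19840001 to 19850000 inside Papss, which encodes the enzyme that makes the sulphate donor of cells, was at 4.69 ± 0.55 (SD over 28 probes) with BaitA, -1.87 ± 2.61 with BaitB and 1.00 ± 1.06 with BaitC. Its neighbour at 19850001 to 19860000, with 107 probes, was at 2.07, 0.62 and 1.30. The bin at 18520001 to 18530000 by CG32198, with 32 probes, was at 2.47, -0.46 and 1.61, the highest of 3L in the BaitC array. Both were high with the baits of chromosome 3 and low with BaitB, and the 4 other bins ranked highest by that pattern held 162 to 181 probes. Of these, the bin at 9040001 to 9050000 with the arginine kinase genes Argk1 and Argk2 was at 1.24 with BaitA, -1.41 with BaitB and 0.51 with BaitC. Its BaitB probes had an SD of 2.54, and the pattern did not hold at each start site there. Within 1 kb of the start sites, Argk2 was at 1.47, 2.88 and 1.43 and Argk1 at 1.34, -0.41 and 0.41.

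The opposite pattern, high with BaitB and low with both others, was largest at 7660001 to 7670000 in SP2523 and CG32377, with 45 probes at -1.06, 2.03 and -0.78 with BaitA, BaitB and BaitC. It was next at teq (9070001 to 9080000, 46 probes) with -2.08, 1.75 and -0.49. With a full set of 181 probes, the bin at 8330001 to 8340000 with CG7083, the primase gene Prim1 and the peroxisome gene Pex2 was at -0.76, 1.85 and -0.40. These bins were picked for their differences, so the values describe them and test nothing.

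Bins that were high in all arrays reached modest values. The bin at 20320001 to 20330000 was at 2.16, 2.15 and 0.99 with BaitA, BaitB and BaitC over 21 probes. With 181 probes, the bin at 8730001 to 8740000 inside Prm, the paramyosin gene, was at 1.55, 1.57 and 0.78. The bin at 12050001 to 12060000 by rols, which acts in myoblast fusion, was at 1.28, 1.20 and 0.94, with probe SDs of 2.12, 2.48 and 1.45. Over the 72 probes within 1 kb of the start sites of rols the mean was -0.19, -0.82 and 0.61. That bin thus does not stand for the gene. The bin at 13520001 to 13530000, with 71 probes and no listed gene, was the single one of 3L raised in all 3 arrays, at 3.11, 1.41 and 1.02 (background 3.9% of all bins for raised in all 3). On 3L 47 bins (2.14%) were lowered in all 3 arrays, against a background of 1.15%. Over the matching windows of 2L, 2R, 3R and X, 0.342, 0.324, 0 and 0.152% were raised in all 3. Lowered in all 3 were 1.22, 1.51, 1.74 and 0.253%, so more bins were lowered than raised on those arms too. The lowest of the 47 bins of 3L, at 3570001 to 3580000 inside Eip63E, a cyclin-dependent kinase gene, was at -2.63, -2.68 and -1.66, with probe SDs of 0.94, 0.95 and 1.22. CG32399 (6330001 to 6340000) followed with -2.19, -2.54 and -1.45, and shep (5190001 to 5200000) with -2.45, -2.33 and -1.20. Of the 6 bins ranked lowest over all arrays, 5 held no start site.

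The 3 profiles resembled each other in part. Over the 2200 bins Pearson's r was 0.36 for the pair BaitA and BaitB, 0.47 for the pair BaitA and BaitC and 0.42 for the other pair (Spearman's rho 0.34, 0.45 and 0.38). Within single 1 Mb blocks r averaged 0.35 ± 0.086 (SD over 23 blocks), 0.45 ± 0.083 and 0.41 ± 0.10. The pair BaitA and BaitC, the chromosome 3 baits, had the highest r on each of the 5 major arms, at 0.47 on 3L and X, 0.45 on 2L, 0.42 on 2R and 0.40 on 3R, so that order was not particular to 3L. On 3L its lead over the pair BaitB and BaitC was smaller than the SD over blocks, and the order of the pairs was not tested. The sources used here do not say if a single control DNA served all arrays. The resemblance was smaller among gene-rich bins: for 0 start sites r was 0.40, 0.47 and 0.45, and for 4 or more it was 0.13, 0.22 and 0.12 over 134 bins. Gene-rich bins also varied less, with SDs over bins of 0.73, 0.67 and 0.40 with BaitA, BaitB and BaitC, against 0.93, 0.96 and 0.53. A narrower range can lower r by itself, and its part here was not tested.

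With 0 at the array median, BaitA and BaitB had more low bins than high bins in common. Both were lowered in 125 bins (5.68%, near the background of 5.54%) and both raised in 52 (2.36%, background 14.3%). On 2L, 2R, 3R and X both were raised in 13.3, 6.86, 1.302 and 0.404% of bins. Both were lowered there in 2.297, 3.62, 7.85 and 14.04%, so 3L was not outside the other arms. Centred on the arms without the bait, raised bins made up 67.7% (BaitA) and 77.8% (BaitB) of called 3L bins. Shared bins were not recounted with that centring. Of the bins lowered with BaitA, 24.4% were above 0 with BaitB and 14.9% with BaitC, where 47.9% and 45.8% of all 3L bins were. Of the bins raised with BaitA, 65.8% were above 0 with BaitB and 66.8% with BaitC. All 3 arrays were above 0 in 452 bins (20.5%) and below 0 in 530 (24.1%). Over the matching windows of 2L, 2R, 3R and X, all 3 were above 0 in 31.3, 26.6, 15.6 and 10.1%. They were all below 0 there in 12.4, 17.1, 28.8 and 25.3%, so 3L stood between the other arms in both shares.

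The density of peaks called by the authors on 3L lay within the range of the other arms. At FDR 0.05 or less, 3L held 415 peaks with BaitA, 520 with BaitB and 563 with BaitC, which is 18.9, 23.6 and 25.6 per Mb covered by bins. The other major arms without the bait, pooled, held 34.6, 35.2 and 28.6 per Mb. Arm by arm, 2L, 2R, 3R and X held 32.6, 32.0, 9.67 and 39.0 per Mb with BaitA, 43.9, 38.4, 21.7 and 49.7 with BaitB, and 22.6, 25.4, 17.6 and 37.8 with BaitC. 3R thus held fewer per Mb than 3L in each array, and with BaitC only X held more. The ratio of the density of 3L to the pooled one was 0.545 with BaitA (exact 95% binomial interval 0.489 to 0.606), 0.671 with BaitB (0.609 to 0.738) and 0.895 with BaitC (0.812 to 0.985), where the intervals cover counting error only. Peaks were called per array against a reference height set on each arm, so the height needed differs between arms. The lowest passing score on 3L was 4.64, 4.51 and 2.91 on the log2 scale. In bins, 372 (16.9%) held a BaitA peak against 22.7% of all bins, 464 (21.1%) a BaitB peak against 25%, and 483 (22.0%) a BaitC peak against 21.3%, so the BaitC share was near its background. Peaks of all 3 arrays fell into 39 bins (1.77%), against 3.21%.

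Peaks on 3L lay near start sites more often than probes did. Their middles were within 1 kb of a listed start site for 39.0% of BaitA peaks (exact 95% binomial interval 34.3 to 43.9%), 31.0% of BaitB peaks (27.0 to 35.1%) and 32.9% of BaitC peaks (29.0 to 36.9%), and 18.4% of the probes were. Inside a transcript span lay 62.4%, 62.9% and 58.3% of the peaks and 42.6% of the probes. Because the tables list genes only near peaks, part of this is built in. Peak calls of different arrays were compared on 3L by position. BaitA and BaitB peaks overlapped by at least 1 base in 18 cases, which is 4.34% of the BaitA and 3.46% of the BaitB peaks. BaitA and BaitC overlapped in 17 (4.10% and 3.02%), BaitB and BaitC in 31 (5.96% and 5.51%), and no peak overlapped with both other arrays. By bin, 30.9% of the 3L bins with a BaitA peak also held a BaitB peak and 26.6% a BaitC peak. Of the bins with a BaitB peak, 30.6% held a BaitC peak. Over all 3L bins the shares with a BaitB and a BaitC peak were 21.1% and 22.0%. Shares over the whole series were not computed. Nor was the overlap that position alone would give, so the counts are not called few or many. The other arrays were above 0 at peaks more often than at single probes. At BaitA peaks this held for 57.1% with BaitB and 66.5% with BaitC. At BaitB peaks it held for 52.7% with BaitA and 71.5% with BaitC. At BaitC peaks it held for 58.8% with BaitA and 59.3% with BaitB. Of the probes, 48.3, 46.9 and 46.4% were above 0 with BaitA, BaitB and BaitC.

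The highest peaks were short, and their flanks at 1 to 10 kb averaged from -1.51 to 0.87 in the array of the peak. For BaitA the peak inside ND-39 (20489109 to 20489313), a subunit gene of respiratory complex I, averaged 7.09 ± 0.46 (SD over 4 probes), against 3.07 with BaitB and 2.05 with BaitC, with a BaitA flank of 0.75 at 1 to 10 kb. The peak of equal score at 2011632 to 2011911, 26270 bp from the nearest listed start site, averaged 6.64 ± 0.086 with BaitA, 4.42 with BaitB and -1.70 with BaitC, with a flank of -0.57. The peak inside mirr (12690107 to 12690369), a homeobox gene of the Iroquois complex, averaged 6.82 with BaitA and -1.71 and 0.46 with BaitB and BaitC. Near shd, which encodes an enzyme of ecdysone synthesis, the peak at 14611206 to 14611519 averaged 6.60 with BaitA and -2.67 and -1.05 for the others.

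For BaitB, after a peak inside kug, a Fat-like cadherin gene, the highest was inside Srp68 (8969188 to 8969469), a subunit of the signal recognition particle, at 6.60 ± 0.58, against -1.80 with BaitA and 1.60 with BaitC. The peak in PGRP-LC (9337244 to 9337520), the receptor that senses bacterial peptidoglycan in the Imd pathway, averaged 6.16 ± 0.51 with BaitB, -1.15 with BaitA and 0.46 with BaitC. The peak in Bre1 (5786064 to 5786273), the ubiquitin ligase of histone H2B, averaged 6.19 with BaitB, 2.88 with BaitA and -0.49 with BaitC. For BaitC the highest was 1698 bp from the start site of Six4 (20786983 to 20787187), a homeobox gene of muscle and gonad, at 7.34 ± 0.24 over 4 probes, against 1.73 with BaitA and -2.78 with BaitB. The peak inside CG6559 (10289745 to 10289954) averaged 6.69 with BaitC, -0.47 with BaitA and -0.70 with BaitB. The peak at 20695361 to 20695666 was also high with BaitA, at 3.86 beside 5.16 with BaitC and -1.07 with BaitB. Peaks were taken by their height in 1 array, which in part makes the others lower.

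At start sites the 2062 measured genes of 3L had a median of 0.47 with BaitA, 0.23 with BaitB and 0.25 with BaitC, each the mean of probes within 1 kb of a gene's start sites. The SD over genes was 1.43, 1.42 and 0.75, and 25.9% of the genes were above 0 in all 3 arrays. A gene with 1 start site rests on about 36 probes, which resemble their neighbours, so the error of a single gene is wide and not known. Gene groups are given by their median and by how many members exceeded the median of all genes, with no test.

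The salivary gland group had a median above that of all genes in each array, as did the cuticle, heat shock, blood cell and homeobox groups below. The salivary gland group held 11 measured members, the glue genes Sgs3 and Sgs8 and 9 Eig71E genes, whose small products are made in the larval gland around pupariation. Their median was 1.24 with BaitA, 1.01 with BaitB and 0.82 with BaitC, and 10, 7 and 9 of them exceeded the median of all genes. Eig71Ec (start site at 15645315) was at 1.49, 1.90 and 1.30, and Eig71Ei (15652841) at 1.67, 1.01 and 1.77. Eig71Ea, at the edge of the cluster (15642712), was at -1.01, 0.14 and -0.32. Cluster genes lie so close that their 1 kb windows share probes, and they count for fewer places than genes.

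The chorion genes Cp15, Cp18 and Cp19 lay in the BaitA run above. They were at 2.56, 1.60 and 1.35 with BaitA, at 1.69, 1.58 and 2.27 with BaitB, and at -1.19, 0.14 and -0.87 with BaitC. All 3 exceeded the median of all genes with BaitA and BaitB and none did with BaitC. The 19 cuticle protein genes of the 65A and 65E clusters, structural genes of the larval and adult cuticle, had medians of 1.02, 1.14 and 0.40 with 13, 11 and 14 members above. They ranged from -2.38 at Lcp65Ad to 2.61 at Lcp65Ae with BaitA within 1 cluster, and Lcp65Ab1 and Lcp65Ab2 have the same probes here. The 5 heat shock genes had medians of 0.74, 0.98 and 0.25 with 4, 5 and 3 above. Hsp22, a small mitochondrial chaperone gene, was the highest of them with BaitA at 2.62, beside 1.56 with BaitB and 0.80 with BaitC.

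**Figure D5:**
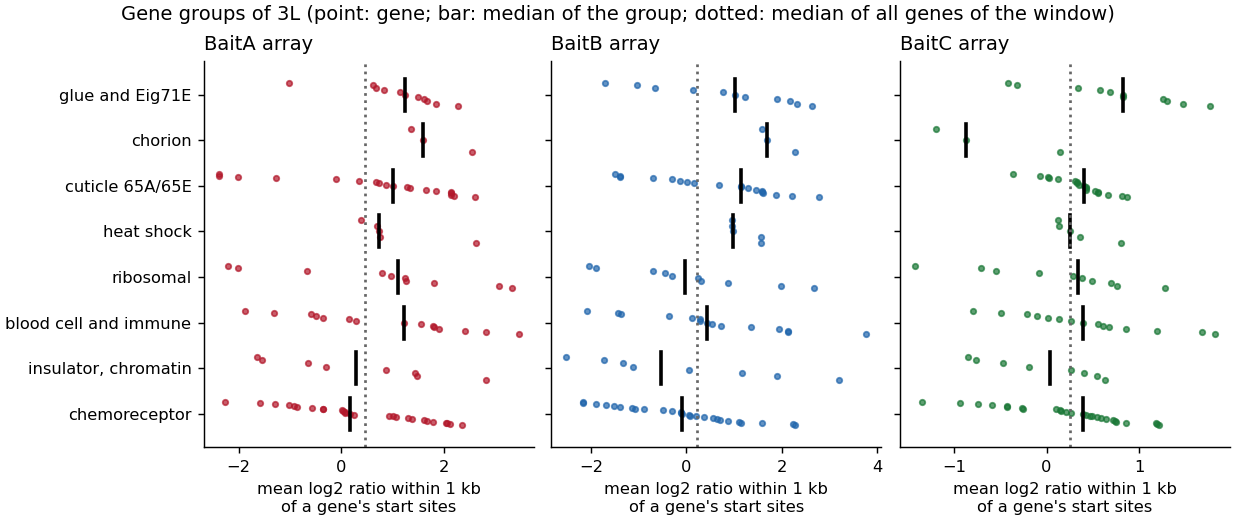
Mean centred log2 ratio within 1 kb of the start sites (horizontal axis) of the genes of 8 groups on 3L (rows), 1 panel per array, with points for genes, a bar for the group's median and a dotted line for the median of all 2062 genes. The glue and Eig71E genes have medians of 1.24, 1.01 and 0.82, the chorion genes are at 1.60 and 1.69 with BaitA and BaitB and at -0.87 with BaitC, and every group of 5 or more spreads across the dotted line in at least 1 array.

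The 15 genes of blood cells and immunity, a group that S2 cells partly express, had medians of 1.23, 0.43 and 0.39 with 8, 10 and 9 above. PGRP-SB1, a secreted peptidoglycan recognition protein, was at 1.81, 3.77 and 1.81, whereas Hml, hemolectin of hemocytes, was at 0.15, -2.08 and -0.21. The 8 insulator and chromatin protein genes had medians of 0.29, -0.53 and 0.036 with 4, 3 and 4 above. CTCF, an insulator protein gene itself, was at 1.49, 3.20 and -0.47, Trl, the gene of GAGA factor, at 0.88, 0.048 and 0.27, and the trithorax group gene ash1 at 2.81, -1.73 and 0.63. The 10 ribosomal protein genes had medians of 1.11, -0.022 and 0.34 with 7, 5 and 6 above, from -2.22 at RpS4 to 3.33 at RpL26 with BaitA.

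The medians of the developmental groups were unequal between arrays, which was not tested. The 9 Iroquois and other homeobox, T-box or Sox genes had medians of 1.81, 0.48 and 0.29 with 5 above in each array. Doc2, a T-box gene of the heart and amnioserosa, was at 3.13, 2.90 and 0.49, and ara of the Iroquois complex at 2.96, -0.93 and -0.31. The 14 patterning and signalling genes had medians of 1.17, -0.26 and 0.21 with 11, 5 and 6 above. Among them the Wingless receptor gene fz was at 2.54, -0.83 and 1.17, and the cell death gene grim at -1.97, -2.14 and 1.58. The 8 ecdysone response genes had medians of -0.33, 0.46 and 0.16 with 2, 4 and 4 above. Eip78C, a nuclear receptor gene, was at -0.70, -1.44 and -0.89. The 9 genes of muscle and neurons had medians of -0.19, -0.37 and 0.59 with 2, 3 and 7 above, and sls, the titin-like gene of muscle, was at 1.10, 2.33 and 1.72. The 27 chemoreceptor genes, which belong to sensory neurons, had medians of 0.16, -0.10 and 0.40 with 12, 10 and 15 above. Neighbours in the Gr64 cluster of sugar receptors differed as widely as the group, from -2.27 at Gr64b to 2.11 at Gr64c with BaitA.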

How the data were processed

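Each of 3 samples, BaitA, BaitB and BaitC, was 1 array with 2157868 probes at a median step of 55 bp. The deposited probe values are ratios of Cy5 over Cy3, taken as log2; no source used here states the log base or the centring, and the deposited medians were -0.16, -0.14 and -0.02. Per the file headers, the authors called peaks with NimbleScan on each array alone, with a peak score on the log2 scale and an FDR from shuffled values that serves as a q-value. The authors' deposited tables pair peaks of FDR at most 0.2 with features within 5 kb.

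Probes were centred on the array median and averaged in 10 kb bins of 20 or more probes, with 500 kb and 2 Mb left out at the arm ends (Python 3.11.15, pandas 2.3.3, NumPy 2.4.6, SciPy 1.17.1). Binning was checked on simulated probes that were independent of each other. Real neighbouring probes were correlated, so this checks the computation and not the error of a bin. Bins, stretches, peaks and list members were named by fixed ranks within 3L: per array the 6 highest and 4 lowest bins, the 3 highest and 3 lowest stretches of 250 kb, and the 6 highest peaks. Genes were named through the RefSeq table of Release 6, by accession (3137 of 3407 on 3L matched), without its coordinates. The bins, the 12 gene lists and the rules were chosen with earlier results of these data known. With 1 array per bait, no test between arrays was made. Bin size, probe minimum, median in place of mean, centring, arm ends and peak thresholds were varied.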

Additional observations from a re-analysis of the deposited data

Results flagged for a closer look

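The difference between 3L and 2R pointed one way in the BaitA and BaitB arrays (3L minus 2R was -0.25 and -0.29) and the other way in the BaitC array (0.012), and that between the arrays was not tested. The BaitC value is smaller than the SD over 1 Mb blocks. The difference between 3L and X had opposite signs too, with 0.53 for BaitA and 0.42 for BaitB against -0.32 for BaitC, and this was not tested either. BaitA and BaitB share a slide and BaitC does not, so slide and bait cannot be told apart.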

How the results depend on the processing

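No paired analysis was possible because each bait has 1 array. Of the 150 values recomputed under another setting, 107 moved by less than the spread, 40 moved by more and 3 changed sign. The sign changes concern values near 0: with the median of probes in place of the mean, the 3L mean of BaitA was -0.11 and the last 5 Mb minus the first 5 Mb of BaitB was -0.0049, and centred on the arms without the bait the 3L mean of BaitB was 0.39 (BaitA 0.23). The shares of bins called moved most. Raised bins of BaitA, BaitB and BaitC came to 20.7, 17.7 and 4.27% with 5 kb bins, 6.18, 5.54 and 0.272% with 20 kb bins, and 22.3, 21.6 and 2.05% with the median of probes. Lowered bins came to 20.4, 22.7 and 9.13% with 5 kb bins, 7.18, 10.9 and 2.82% with 20 kb bins, and 26.6, 31.9 and 11.8% with the median of probes; larger bins average more probes. Centring on the arms without the bait gave 19.96 and 25.5% raised for BaitA and BaitB, and 9.5, 7.27 and 4.45% lowered. Over whole arms, which adds the high pericentromeric bins, 18.5 and 13.3% were raised and the last minus the first 5 Mb was 0.76 and 0.32 for BaitA and BaitB. With the median of probes, 3L minus X was 0.74 and 0.66 for BaitA and BaitB, and r between BaitA and BaitC was 0.38. At 100 kb r was 0.58, 0.67 and 0.62 for BaitA with BaitB, BaitA with BaitC and BaitB with BaitC. The density of peaks on 3L over the other arms was 0.234, 0.477 and 0.698 at FDR 0.01, 0.760 and 0.850 for BaitA and BaitB at FDR 0.2, and 0.423 for BaitB with 1 peak height, so it stayed below 1 under each of these. Except where the alternative itself adds or averages bins, the cause was not tested.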
